A study of Canis lupus familiaris with 17 samples.

Results

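Polymorphonuclear myeloid-derived suppressor cells (PMN-MDSCs) were examined in the circulating leukocytes of dogs, 7 clinically healthy and 10 with treatment-naïve primary osteosarcoma (OS). A PMN-MDSC was any cell barcode with at least 10 transcripts of CAMP and 5 of LTF and none of CD3E or MS4A1, each transcript counted by its unique molecular identifier (UMI). Of 84345 barcodes with 200 to 4500 genes, 500 to 20000 UMIs and under 10% mitochondrial UMIs, 584 met the rule, or 0.692%. They came from 15 of the 17 dogs, with 47 cells in healthy dogs and 537 in dogs with OS. All dogs carry the label wild type, each is a single animal and a single library, and the cells are those that stayed in the mononuclear layer of a density gradient after red cell lysis. Denser neutrophils were thus left behind, and the values below describe low-density cells only. Samples were numbered within each group (healthy dog 3, OS dog 5). Ages and breeds listed by the study differ between the groups, and it names age as a possible confounder. Disease cannot be told apart from these here.

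Neutrophils load their granules in sequence while they mature in the bone marrow. Primary (azurophil) granules are filled in the promyelocyte, specific granules with lactoferrin (LTF) and cathelicidin (CAMP) in the myelocyte, and gelatinase granules with MMP9 later still, and the transcripts of each granule are shut off as the cell moves on. PMN-MDSCs are neutrophil-lineage cells that rise in cancer and chronic inflammation, are often immature, and are defined by their suppression of T cells, which RNA alone does not measure. Mature canine neutrophils carry CD4 on their surface, unlike those of mice and people.

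CAMP and LTF chose the members, so their levels are given as a description. Members held a median of 249.5 CAMP UMIs (range 10 to 1456) and 111 LTF UMIs (range 5 to 288), and CAMP by itself took a median of 4.38% of all UMIs in a member. Just inside the threshold, 13 members had 10 to 19 CAMP UMIs and 49 had fewer than 50. Just outside it, 352 other passing barcodes without CD3E or MS4A1 had any CAMP. Of these, 314 had a single UMI, 18 had 3 to 9 and 4 had 10 or more. LTF separated less sharply, since 2228 barcodes outside the rule, likewise without CD3E or MS4A1, had at least 5 LTF UMIs. Of these, 97.8% met a gate for monocytes. It required at least 10 UMIs summed over a short set of monocyte genes that included LYZ, FN1 and CSF1R. Barcodes with CD3E or MS4A1 are not in these counts, and T cells holding CAMP are given below. A further 76 barcodes met the CAMP and LTF thresholds but held CD3E or MS4A1, and 39.5% of these were marked as doublets by Scrublet scores, against 3.25% of members and 4.67% of all barcodes.

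The label was set beside markers that the rule did not use. MMP8, MMP9, CD177, PGLYRP1 and S100A12 are on the study's short list for the cluster, which was chosen on these samples. Like CAMP and LTF they are genes of neutrophils, so their presence is a description and not independent evidence. Of the 584 cells, 97.9% held MMP8 (neutrophil collagenase), 95.7% held MMP9 (gelatinase B), 88.0% held CD177 (a surface glycoprotein of neutrophils) and 84.9% held PGLYRP1 (a granule protein that binds bacterial peptidoglycan). S100A12, an alarmin of neutrophils, had a median of 503.5 UMIs a cell. With each cell thinned to 1500 UMIs and shallower cells left out (578 members kept), MMP8 was still found in 87.5% of members, against 0.0766% of T cells (at least 2 CD3E UMIs, none of MS4A1) and 0.047% of B cells (at least 2 MS4A1 UMIs, none of CD3E), which should lack it. Among 10 T cell markers, CD3E was at 0 by the rule and the others summed to 0 to 201 CPM (counts scaled to the library total) in the dogs with at least 5 members. Among 8 B cell markers, CD79A gave 3038 UMIs over all members whereas CD79B gave 2. The monocyte list was led by lysozyme (LYZ, 37242 UMIs), which granulocyte precursors also express, while CCR2 gave 2 UMIs and CSF1R 28. Of 5 erythrocyte markers 4 were at 0, the 4 platelet markers summed to at most 62.5 CPM in a dog, and of 10 eosinophil and basophil markers GATA2 and PRG3 were at 0 while PADI3 gave 7514 UMIs. Thus markers of neutrophil granules were present. MS4A1 and CD3E were at 0 by the rule, and the B cell list summed to 406 to 1301 CPM in the dogs with at least 5 members, most of it CD79A. Suppression was not measured, so the name PMN-MDSC is used here for the gene pattern.

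The members were compared with 2060 mature neutrophils, taken as barcodes with S100A12 and the genes SERPINA1, IL1R2, ALDH1A2 and SGK1 but few UMIs of that monocyte gene set, and with 15379 monocytes. A member held a median of 5623 UMIs and 1597.5 genes. In mature neutrophils the median per dog ran from 1428 to 2084 UMIs. Barcodes passing the limits numbered 1239 to 7070 a dog. Of the passing barcodes, 922 barcode sequences occurred in more than 1 library, and 18 members carried such a sequence without any being shared between members. T cells, which should lack CAMP, held a CAMP UMI in some barcodes, from free RNA or doublets that were not told apart. They made up 5.2% of T cells in OS dog 2 and 4.0% in OS dog 5, the dogs with most members beside OS dog 9 (1.13%), but 0.152 to 0.578% in healthy dogs (p = 0.649 between the groups, rank-sum test, exact and two-sided). The part of such stray UMIs in the results below was not tested beyond the values given.

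To learn whether PMN-MDSCs are more abundant in dogs with OS, their share of all passing barcodes was compared between the groups. The share was 0.0141% at the lowest, 0.115% at the median and 0.257% at the highest in healthy dogs, and 0%, 0.407% and 3.40% in dogs with OS. OS dogs 5, 2, 9, 4 and 7 lay above every healthy dog, with 187, 168, 93, 34 and 37 members. The other 5 dogs with OS fell within or below the healthy range, with 10, 5 and 3 members in OS dogs 10, 1 and 6 and none in OS dogs 3 and 8. Zero members among 1239 barcodes in OS dog 3 allow a share of up to 0.242%, and among 4153 in OS dog 8 up to 0.0722%, counting error only. The means were 0.133% ± 0.0915 (SD, n = 7) and 0.951% ± 1.23 (SD, n = 10), and a Wilcoxon rank-sum test, exact and two-sided, returned p = 0.458 (adjusted p = 0.458 over both shares tested). No difference beyond the spread between dogs was thus detected, and 3 dogs (OS dogs 2, 5 and 9) held 76.7% of all members.

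**Figure D1:**
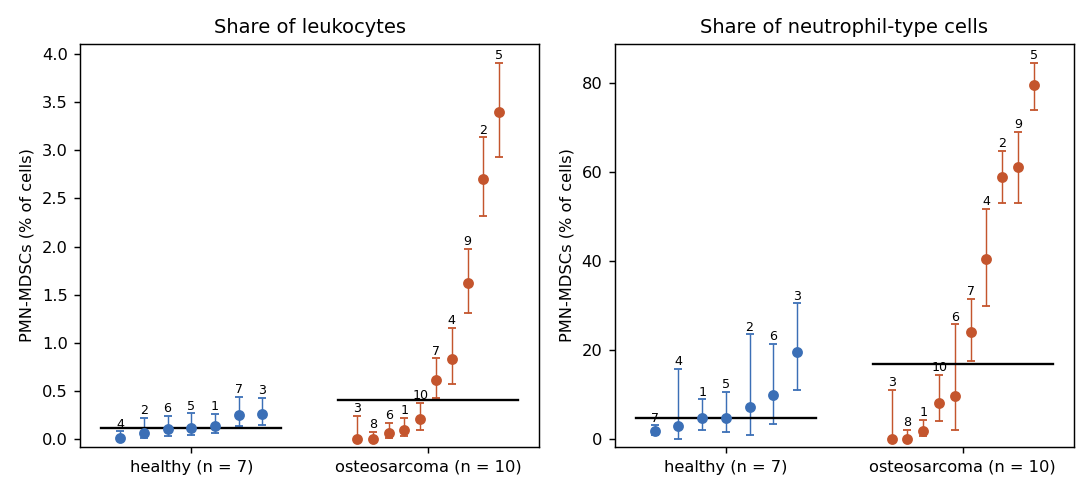
PMN-MDSCs as a percentage of all passing barcodes (left) and of PMN-MDSCs plus mature neutrophils (right), a point for each dog with its replicate number, its exact 95% Clopper-Pearson interval for counting error as a bar (for dogs at 0, the limit of 3 counts), and the group median as a line. OS dogs 5, 2 and 9 stand highest in both panels, OS dogs 3 and 8 are at 0, and the 7 healthy dogs reach at most 0.257% on the left and 19.4% on the right.

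Because lymphocytes fill most of such a sample, PMN-MDSCs were also taken as a share of neutrophil-type cells, meaning members plus mature neutrophils. This share was 1.76% at the lowest, 4.72% at the median and 19.4% at the highest in healthy dogs, and 0%, 16.9% and 79.6% in dogs with OS. In OS dog 5, 187 of 235 neutrophil-type cells were PMN-MDSCs (95% Clopper-Pearson interval from 73.8 to 84.5%), in OS dog 9 the share was 61.2% (53.0 to 69.0%) and in OS dog 2 it was 58.9% (53.0 to 64.7%). Healthy dog 7 had the most mature neutrophils, 668 or 14% of its barcodes, and the lowest share among healthy dogs. The same exact rank-sum test returned p = 0.303 (adjusted p = 0.458), with 5 of 10 dogs with OS above every healthy dog. Mature neutrophils alone averaged 2.03% ± 1.32 of barcodes in OS (SD, n = 10) against 3.19% ± 4.85 in healthy animals (SD, n = 7), with p = 0.813 from the same exact test. A share of barcodes does not tell a change in PMN-MDSCs in blood from a change in how many neutrophils stay in the mononuclear layer.

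To describe what sets PMN-MDSCs apart from mature neutrophils of the same animal, counts were summed per dog in 8 dogs with at least 10 cells of each kind (healthy dogs 3 and 7, OS dogs 2, 4, 5, 7, 9 and 10) and compared with edgeR with the dog as block. A gene was called at an adjusted p below 0.01 with an absolute log2 fold change above 0.58. Of 9136 genes tested, 2426 or 26.6% were called, 1218 (13.3%) higher and 1208 (13.2%) lower in PMN-MDSCs, and the median log2 fold change over all genes was 0.08. Genes of the gates (such as CAMP, LTF, S100A12 and LYZ) were given no call. CAMP and LTF are specific granule genes and the cells were picked on them, so genes made at the same stage were bound to differ and their values are a description. The mature set was picked on genes of mature neutrophils and on low CAMP and LTF, so the same holds for other genes of mature neutrophils.

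Granule genes stood highest in PMN-MDSCs. Of 10 specific granule genes tested, 8 were higher, 1 lower and 1 not called, with a median log2 fold change of 4.66. PGLYRP1 had 6385 CPM in the lowest dog, 13432 at the median and 21258 in the highest in PMN-MDSCs, against 0, 0 and 21.5 CPM in mature neutrophils (log2 fold change 11.34 ± 0.29 SE). No value overlapped, and the highest mature value came from OS dog 2. MMP9 ran from 1892 to 3551 CPM against 0 to 43.1 CPM (7.71 ± 0.26) and MMP8 from 1043 to 3375 CPM against 0 to 21.5 CPM (8.56 ± 0.29). CD177 ran from 607 to 1228 CPM against 0 to 35.2 CPM (5.85 ± 0.26). The desaturase FADS1 (6.90 ± 0.23), CRISP2 (7.26 ± 0.25) and the vitamin B12 carrier TCN1 (5.48 ± 0.25), all on the study's short list for the cluster, were likewise higher in 8 of 8 dogs. That list was chosen on these samples and is not independent evidence.

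**Figure D2:**
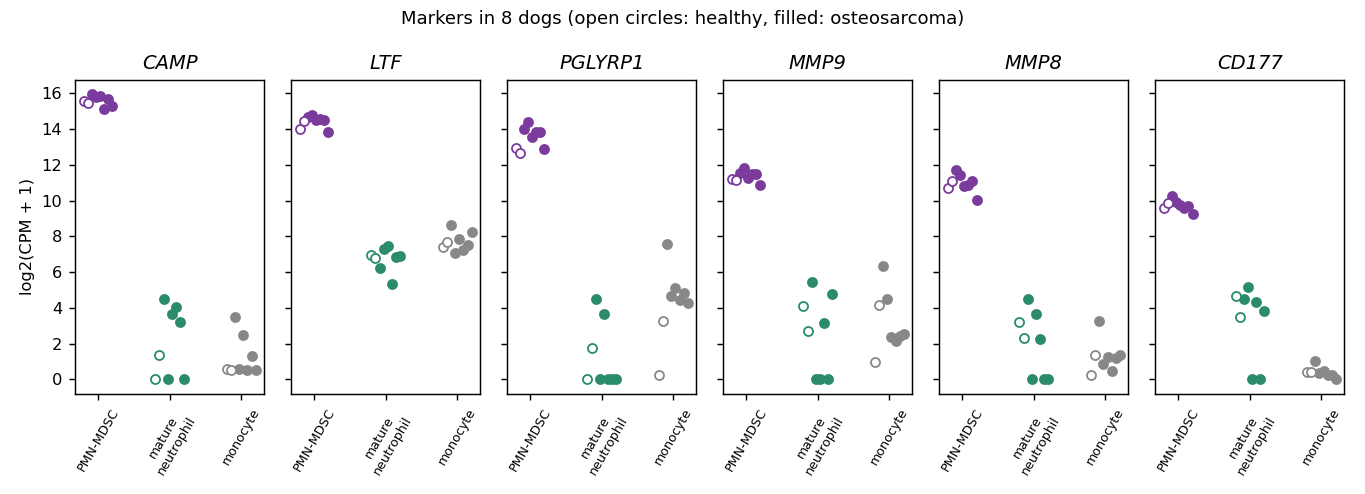
Level of 6 markers in PMN-MDSCs, mature neutrophils and monocytes of 8 dogs as log2(CPM + 1), a point for each dog, open for healthy dogs and filled for dogs with OS. All 8 dogs' PMN-MDSCs lie above all mature neutrophils and monocytes for each gene (PGLYRP1 at least 6385 CPM against at most 21.5 in mature neutrophils), CAMP and LTF by construction.

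The pentraxin PTX3, a soluble pattern receptor stored in specific granules, gave 2050 UMIs in PMN-MDSCs and none in mature neutrophils, at least 448-fold higher against a floor of 3 counts over the mature set. The carbonic anhydrase CA6 was at least 235-fold higher and AADACL2 at least 43.3-fold higher by the same floor. LCN2, which sequesters bacterial siderophores, reached 609 CPM on average against 1.87 CPM (log2 fold change 7.99 ± 0.40), the latter 0.960 CPM without healthy dog 3, and the adipokine RETN 848 against 2.88 CPM (7.88 ± 0.34). PLAC8A was at 366 against 2.12 CPM (7.34 ± 0.39), or 342 against 0.111 CPM without OS dog 2 (8.59). Among gelatinase and secretory genes, 5 of 10 were higher, 2 lower (SLC11A1 and MMP25) and 3 not called, with the formyl peptide receptor FPR2 among those higher at 5.0 ± 0.41.

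Of 7 azurophil genes tested, BPI (bactericidal permeability-increasing protein, 3.83 ± 0.41) and the protease inhibitor SERPINB1 (3.58 ± 0.18) were higher and the proteoglycan core SRGN lower (-4.08 ± 0.19). MPO and ELANE, the defining azurophil enzymes, were not called against mature neutrophils. They were rare, with 11 MPO UMIs over 3 of 8 dogs and 44 ELANE UMIs, all in OS dog 5. Against monocytes, 3 of 7 azurophil genes were higher in PMN-MDSCs and 4 lower. MPO (5.54), ELANE (8.02) and SERPINB1 (2.36) were higher, ELANE on the UMIs of OS dog 5 alone, and BPI was lower, at 101 against 876 CPM (-3.15 ± 0.20).

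Regulators of granulopoiesis split. CEBPE, required for specific granule formation, ran from 143 to 217 CPM in PMN-MDSCs and from 0 to 15.5 CPM in mature neutrophils (4.59 ± 0.36), and the groups did not overlap. MYB, a factor of proliferating progenitors, was at 65.5 against 0.770 CPM on average (5.51 ± 0.65, from 159 and 2 UMIs, a ratio of 52.2 with a 95% counting interval of 14.2 to 435). RUNX1 was higher as well, while CEBPB, the factor of emergency granulopoiesis, ITGA4 and ETV6 were lower, and 4 of the 10 tested were not called. Of 13 cell cycle genes, 8 were higher and PCNA was lower. These transcripts were rare, with TOP2A at 20.7 CPM (61 UMIs against 1) and CCNA2 at 10.6 CPM (23 UMIs against 0). Without OS dog 10, which had 10 members, these means were 13.2 and 3.49 CPM, and CCNA2 was not called (2.88, adjusted p = 0.113 from edgeR). UBE2C was not called without OS dog 2 (3.83, adjusted p = 0.0188 from edgeR). Calls for TOP2A, CCNA2, CENPF and UBE2C were lost with DESeq2, where their log2 fold changes were 2.63, 2.01, 3.1 and 3.03.

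Metabolic genes differed too. Among 13 glycolysis genes 7 were higher, led by LDHB (5.13 ± 0.52, or 6.16 without healthy dog 7), GPI (4.84 ± 0.29), ENO1 (3.96 ± 0.20) and HK3 (3.43 ± 0.20), with the glucose transporter SLC2A1 lower and 5 not called. The NADPH oxidase makes the respiratory burst, and its membrane subunits CYBB (604 against 46.0 CPM, 3.85 ± 0.23) and CYBA (3168 against 1208 CPM, 1.38 ± 0.16) were higher, while the cytosolic subunit NCF4 was lower (-0.94 ± 0.19). Of 54 cytosolic ribosomal protein genes tested, 49 were higher and 1 lower, with a median log2 fold change of 1.60.

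CD4 was the sharpest of the genes lower in PMN-MDSCs that mark mature canine neutrophils. It ran from 9.22 to 35.9 CPM in PMN-MDSCs and from 2826 to 4267 CPM in mature neutrophils (-7.46 ± 0.24), lower in 8 of 8 dogs with a median of 12.0 against 3492 CPM. With cells thinned to 1500 UMIs, CD4 was found in 3.11% of members, 97.3% of mature neutrophils, 13.8% of T cells and 0.235% of B cells, so the share in members lay above that in B cells. Without thinning, 44 members held CD4, 35 of them a single UMI and none more than 4. Of 14 mature neutrophil genes 13 were lower and S100A8 was higher, with a median of -3.14. These 14 leave out the gate genes, but the mature set was picked on others of the same kind, so this is a description. Superoxide dismutase SOD2 was at 118 against 5908 CPM (-5.59 ± 0.20) and FNDC3B at 134 against 2954 CPM (-4.39 ± 0.19). The neutrophil attractant CXCL8 was at 91.0 against 3375 CPM (-5.43 ± 0.22), with OS dog 2 highest in both kinds of cell, and at 40.5 against 2152 CPM without that dog. CSF3R, the receptor of the growth factor for neutrophils, and the chemokine receptor CXCR2 were lower as well.

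**Figure D3:**
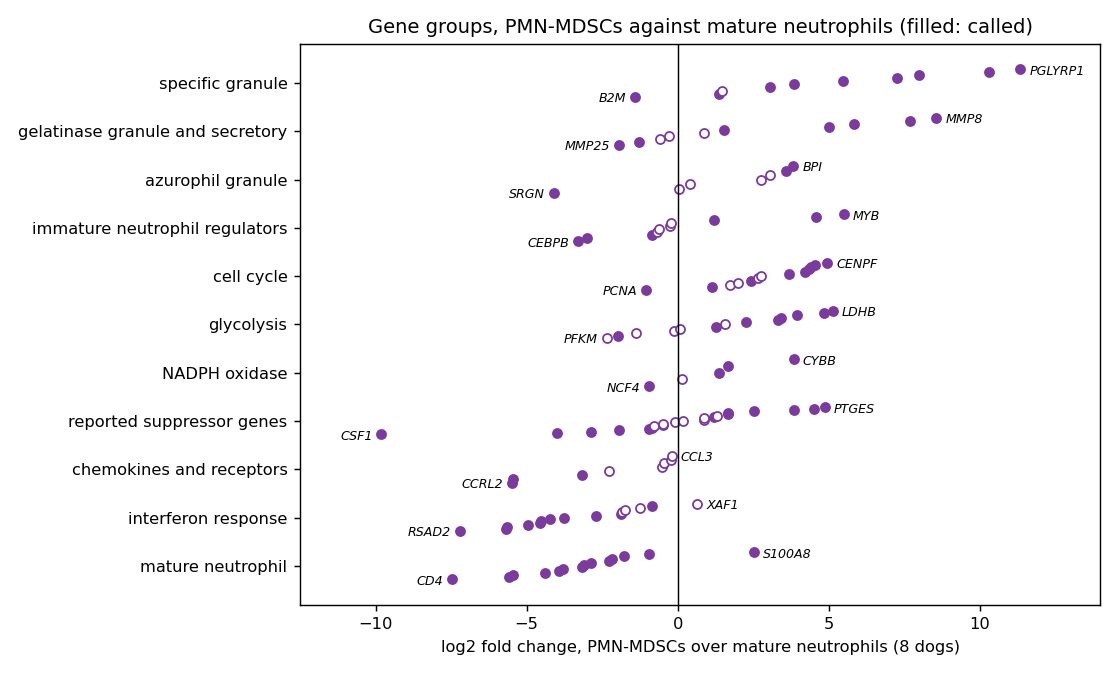
Log2 fold changes of PMN-MDSCs over mature neutrophils in 8 dogs for 11 gene groups, a point for each gene, filled where called, with the lowest and highest gene of each group named. Specific granule genes reach 11.34 for PGLYRP1, while 13 of 14 mature neutrophil genes and 11 of 15 interferon response genes lie to the left as called. PMN-MDSCs were picked on CAMP and LTF, and mature neutrophils on genes of their own kind.

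The interferon response genes were low in PMN-MDSCs, 11 of 15 lower, none higher and 4 not called, with a median of -3.75. RSAD2 gave no UMI in PMN-MDSCs against 387 in mature neutrophils (at least 197-fold lower against the floor of 3 counts), but most of these came from healthy dog 7, and without it 41 UMIs remained and the bound was 45.3-fold. The antiviral kinase EIF2AK2 gave 3 against 336. ISG20, an interferon-induced exonuclease, ran from 0 to 76.2 CPM against 1448 to 2772 CPM (-5.65 ± 0.22), and ISG15 was at 5.21 against 295 CPM (-4.95 ± 0.36), or 2.94 against 265 CPM without OS dog 2. Outside the lists, the fungal receptor CLEC7A (dectin-1) gave 1 UMI against 1085, the transcriptional repressor GFI1B gave 0 against 436, ADGRF5 0 against 363 and the carbonic anhydrase CA4 0 against 134. The cytokine IL18 was at 1.58 against 559 CPM (-7.29 ± 0.35, or -8.76 without OS dog 5), the paraoxonase PON3 at 8.18 against 622 CPM (-6.56 ± 0.30) and CYP4F22 at 9.81 against 1899 CPM (-7.58 ± 0.27). CCDC112 had a log2 fold change of -6.21 ± 0.36. Platelet genes (PPBP, ITGA2B, TUBB1 and CLEC1B) were lower in PMN-MDSCs, 4 of 4, and the source of these transcripts was not tested.

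Genes reported for suppressor function did not move together. Of 21 tested, 7 were higher, 6 lower and 8 not called, with a median of 0.18. Those higher included PTGES, the prostaglandin E synthase (19.8 CPM, 45 UMIs against none), inducible nitric oxide synthase NOS2 (14.8 CPM, 27 UMIs against 1), CYBB and S100A8. Those lower included CSF1, a growth factor of macrophages (0 UMIs against 324, or 117 without OS dog 2), VEGFA (6.73 against 65.4 CPM, -3.99 ± 0.53, or -2.91 without OS dog 2), PTGS2 and arginase 2 (ARG2). NOS2 and PTGES were not called with DESeq2 (log2 fold changes of 3.11 and 3.8), nor was NOS2 without healthy dog 7 (3.26, adjusted p = 0.0156 from edgeR). In cells of both kinds held to 1500 to 6000 UMIs, 1472 of 7088 genes were called. There BPI and CXCR2 lost their calls at 1.82 and -2.61.

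Monocytes share LYZ and some LTF with PMN-MDSCs, and were compared in the same 8 dogs. Of 13499 genes tested, 4755 or 35.2% were called, 1687 (12.5%) higher and 3068 (22.7%) lower in PMN-MDSCs, with a median log2 fold change over all genes of -0.50. CD177 averaged 839 CPM in PMN-MDSCs and 0.337 CPM in monocytes (11.28 ± 0.28), CRISP2 2552 and 1.74 CPM (10.94 ± 0.33), TCN1 1229 and 0.926 CPM (10.44 ± 0.27) and MMP8 2026 and 1.97 CPM (10.41 ± 0.35). PTX3, AADACL2, PLAC8A, CA6, PGLYRP1 and INHBA, a subunit of activin, completed the 10 largest among genes of at least 50 CPM that were higher in every dog, as the rule for naming them required. Without OS dog 2 the monocyte means of CRISP2 and MMP8 were 0.982 and 1.01 CPM. S100A12 and S100A8, the alarmins shared by both lineages, were at 99341 against 971 CPM and 112604 against 2894 CPM. All 5 NADPH oxidase genes tested were higher, 13 of 15 cell cycle genes were higher and none lower, and CEBPE was at 181 against 2.67 CPM (6.08 ± 0.21). Of 9 T cell genes tested, 4 were higher in PMN-MDSCs and 1 lower. Against mature neutrophils 1 of 7 T cell genes was higher and none lower. Of 8 eosinophil and basophil genes, 5 were higher and none lower than in monocytes. Compared with mature neutrophils, 3 of 7 were higher and 1 lower. There 1 of 5 B cell genes was higher and none lower, and 2 of 5 monocyte genes were higher and 1 lower. Relative to monocytes, 3 of 7 B cell genes were lower and none higher. The source of these transcripts was not tested.

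Of 6 MHC class II genes tested against mature neutrophils, 1 was higher in PMN-MDSCs, none lower and 5 not called, with a median of 0.57. The gene called higher there was CD74 at 1.24, which was at -0.27 with doublets removed. Compared with monocytes, all 6 MHC class II genes tested were lower in PMN-MDSCs, with a median of -4.60. The chain DLA-DRA ran from 12.5 to 358 CPM against 3446 to 4730 CPM (-5.01 ± 0.29), and the invariant chain CD74 from 0 to 177 CPM against 1433 to 5938 CPM (-5.43 ± 0.38). Of 9 chemokine and receptor genes tested, 5 were lower and 3 higher (CXCR2, CXCR4 and CCR1). The cytokine IL1A gave 1 UMI in PMN-MDSCs and 5585 in monocytes, CCL4 was at 2.27 against 290 CPM (-6.76 ± 0.38), CCL3 at 1.94 against 129 CPM and prostaglandin synthase PTGS2 at 1.21 against 114 CPM (-6.40 ± 0.46). OS dog 2 was the highest for all 3 in monocytes, and without it the monocyte means were 103 CPM for CCL4, 39.6 CPM for CCL3 and 25.7 CPM for PTGS2, while IL1A gave 3715 UMIs. All CCL4 and PTGS2 UMIs of the members came from the same dog too, so that without it both were at 0 in PMN-MDSCs, at least 57.0-fold and 16.6-fold lower by the floor of 3 counts over the set. ACOD1, which makes itaconate, the maturation marker CD83, PKIB, PLEKHA5, TMEM65 and the matrix proteoglycan VCAN were the others among the 10 lowest by the same limits, lower in every dog. VCAN in PMN-MDSCs was at 0 in 4 of 8 dogs and at 196 CPM in OS dog 5, which also had the most monocytes (2169) and the highest CD74 in PMN-MDSCs. Interferon response genes were lower in 16 of 17. Cytosolic ribosomal protein genes were lower in 52 of 56 and higher in none, opposite in sign to the comparison with mature neutrophils, and both were counted against all genes of their own comparison.

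The members varied among themselves along PGLYRP1. The median was 54 PGLYRP1 UMIs a cell, but 88 of 584 members had none and 110 (18.8%) had at most 2, with a maximum of 274. Over the 584 cells and the 2687 genes found in at least 20% of them, log levels that rose with PGLYRP1 were those of VIM (vimentin, r = 0.74), PADI3 (0.693), MMP9 (0.650) and FADS1 (0.640), and levels that fell were those of PLAC8A (-0.722), RETN (-0.682), ABCA13 (-0.574), BPI (-0.560) and LYZ (-0.536). All 53 ribosomal protein genes among them had a negative r, with a median of -0.514. Cells share a library with other cells of their dog and each value shares its cell's depth, so these correlations describe the cells and carry no test. LTF lay with PGLYRP1 (0.426) and CAMP against it (-0.336), although both belong to the same granule class and both were used by the rule.

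The cells with at most 2 PGLYRP1 UMIs were deeper, with a median of 7277.5 UMIs against 5425, and gave 6.78% of their UMIs to ribosomal protein genes against 2.22%. Within OS dogs 2, 5 and 9, the 3 dogs with 10 or more cells of both kinds, sums gave 194 to 295 CPM of BPI in the cells with few PGLYRP1 UMIs and 12.8 to 110 CPM in the others. RETN was at 1444 to 3348 against 157 to 540 CPM, LYZ at 16253 to 25805 against 5671 to 8548 CPM, and the tubulin regulator STMN1 at 172 to 377 against 0 to 18.0 CPM. CEBPE was at 184 to 258 against 85.9 to 157 CPM. MMP9 went the other way, at 445 to 1110 against 2371 to 2599 CPM, as did VIM at 1443 to 3197 against 7026 to 8494 CPM. These genes did not overlap between the sets of cells, but most were named for their correlation with PGLYRP1, on which the cells were split, so this is a description. MYB, HMGB2, TCN1, LCN2, CD177 and CRISP2 did overlap, at 625.1 to 1004 against 650 to 731 CPM for CD177.

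**Figure D4:**
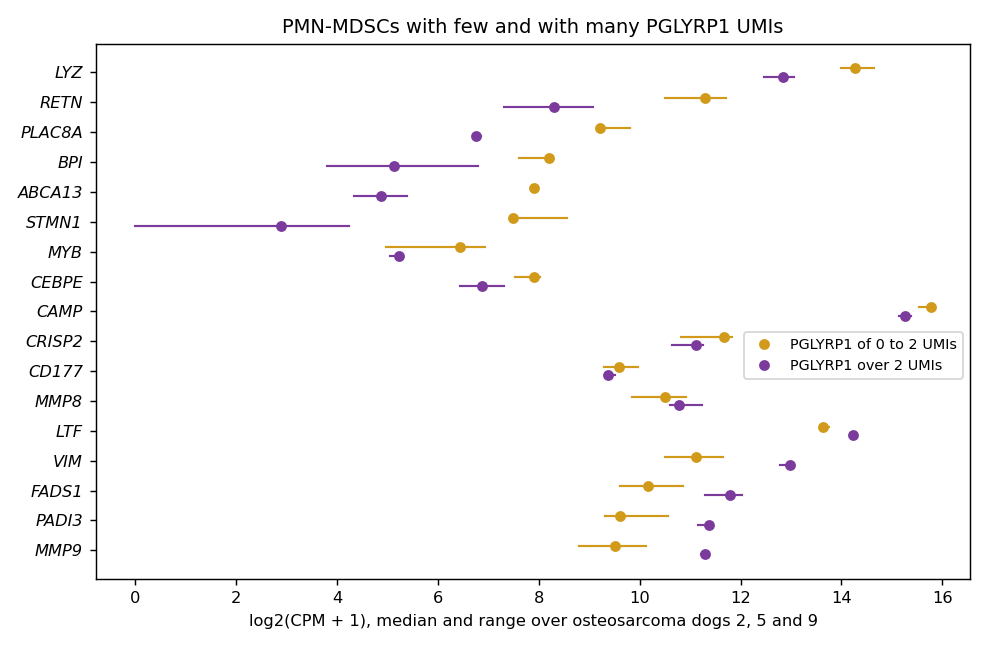
Levels of 17 genes as log2(CPM + 1) in PMN-MDSCs with 0 to 2 PGLYRP1 UMIs and with more, the point being the median and the line the range over OS dogs 2, 5 and 9. RETN, PLAC8A, BPI, ABCA13, STMN1 and LYZ lie higher in cells with few PGLYRP1 UMIs, MMP9, PADI3, FADS1 and VIM lie lower, and CD177, CRISP2 and MMP8 overlap.

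Dividing cells sat at the low end of that axis. With a sum of at least 5 UMIs over 9 cell cycle genes (MKI67, TOP2A, CDK1, CCNB2, CCNA2, TYMS, RRM2, UBE2C and CENPF), 19 members in 6 dogs counted as cycling, and all 19 had at most 2 PGLYRP1 UMIs. There were 7 in OS dog 2 and 7 in OS dog 5, 17 in dogs with OS in all and 2 in healthy dogs. Their median was 12120 UMIs, 674 CAMP UMIs, 269 LYZ UMIs and 0 MMP9 UMIs, and 1 of the 19 was marked as a doublet. A deep cell reaches a sum of 5 UMIs more easily, so the depth moves with this count. Cells with few PGLYRP1 UMIs made up 25% of members in OS dog 2, 15% in OS dog 5, 14% in OS dog 9, 20.6% in OS dog 4 and 2.70% in OS dog 7, where 1 of 37 members was such a cell. The share was 60% in OS dog 1 (3 of 5 members) and 40% in OS dog 10 (4 of 10), and in the healthy dogs with at least 5 members it ran from 0% in dog 6 to 40% in dog 5 (2 of 5).

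To ask whether PMN-MDSCs of dogs with OS differ in their genes from those of healthy dogs, counts were summed over the members of each dog with at least 5 (healthy dogs 1, 3, 5, 6 and 7, and OS dogs 1, 2, 4, 5, 7, 9 and 10). The sums held 30288 to 82316 UMIs in healthy dogs and 32014 to 1140039 in dogs with OS. None of 8047 genes (0%) was called by edgeR, 635 had an unadjusted p below 0.05 and 5 an adjusted p below 0.05, and DESeq2 called none either, with 202 at an unadjusted p below 0.05. The median log2 fold change over all genes was 0.33 with edgeR's TMM scaling and 0.11 with DESeq2's size factors in edgeR, and it was 0.015 over the 1158 genes that passed edgeR's own expression filter. The count depended on single dogs: 15 genes were called without OS dog 2, 12 without OS dog 7, 10 without OS dog 9, 9 without OS dog 4, 9 without OS dog 5 and 1 without OS dog 10, against 0 without any of the healthy dogs or OS dog 1.

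For the granule genes no difference between the disease groups passed the test. PGLYRP1 was at 7471, 7906, 5461, 11464 and 6581 CPM in healthy dogs 1, 3, 5, 6 and 7, and at 3132 CPM at the lowest, 13105 CPM at the median and 19552 CPM at the highest in dogs with OS (log2 fold change 0.60 ± 0.28, adjusted p = 0.613). MMP9 averaged 2614 ± 441 CPM (SD, n = 7) in OS against 2047 ± 339 CPM in healthy animals (SD, n = 5) (0.35 ± 0.23, adjusted p = 0.639). MMP8 (0.17 ± 0.24), CD177 (-0.10 ± 0.24), TCN1 (0.39 ± 0.31), FADS1 (0.04 ± 0.25), CRISP2 (-0.30 ± 0.28) and S100A12 (-0.03 ± 0.28) were not called either, and the groups overlapped for each. Over 11 specific granule genes the median was 0.08 with none called, and over 10 gelatinase and secretory genes 0.23 with none called, against 0.33 over all genes and 0.015 over those of edgeR's own filter. SLPI, a protease inhibitor of the latter list named after its values were seen, was at 244 against 7.34 CPM (4.39 ± 1.12, adjusted p = 0.097 from edgeR). It was called without OS dog 2, 4, 5, 7 or 9, at 3.87 to 4.65, but not without OS dog 10. In the 8 dogs compared with monocytes, PMN-MDSCs had 1127 CPM of SLPI in OS dog 10 and a median of 21.7 CPM. Their mean there was 220 CPM, and 89.8 CPM without OS dog 10. A p that misses the threshold does not show that the groups were alike.

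The 5 genes with an adjusted p below 0.05, none of them called, were CD74, RUBCNL, TMSB10, TUBA1B and 1 gene listed without a symbol. CD74, the invariant chain, gave no UMI in the members of all 5 healthy dogs. In dogs with OS it was at 0 CPM at the lowest (OS dog 10), 53.5 CPM at the median and 167 CPM at the highest. That was at least 8.31-fold higher against a floor of 3 counts over the healthy set (adjusted p = 0.020 from edgeR). CD74 passed the filter of 10 counts through the dogs with OS alone, whose sums reached 1140039 UMIs against at most 82316 in healthy dogs. RUBCNL, a regulator of autophagy, was at 24.5 CPM in healthy dog 3 and at 0 in the other healthy dogs, and ran from 23.6 to 191 CPM in dogs with OS (3.82 ± 0.78, adjusted p = 0.022 from edgeR). TMSB10, an actin-binding thymosin, was at 87.3, 122, 57.2, 26.2 and 0 CPM in healthy dogs 1, 3, 5, 6 and 7 and at 0, 197 and 1173 CPM in dogs with OS (2.49 ± 0.55, adjusted p = 0.042 from edgeR). TUBA1B, a tubulin, was at 52.4, 171, 0, 26.2 and 135 CPM and at 129, 283 and 1151 CPM (1.94 ± 0.43, adjusted p = 0.042 from edgeR), the highest in OS dog 10. BCL2A1, GLUL, DLA88, SMC4, USP21 and CTSS followed, with adjusted p from 0.055 to 0.076 in edgeR. SMC4 too was at 0 in all 5 healthy dogs. Over the 1158 genes that passed edgeR's own expression filter, the smallest adjusted p from edgeR was 0.999.

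Lists of other cell types were read beside these genes, and none of their genes was called. CD74 was found in 91.8% of B cells, 85.7% of monocytes and 47.9% of T cells at 1500 UMIs and in 4.15% of members. Between the disease groups 6 of 9 monocyte genes and 3 of 6 MHC class II genes had an unadjusted p below 0.05. So did 1 of 3 platelet genes, 1 of 3 B cell genes, 0 of 5 T cell genes and 0 of 6 eosinophil and basophil genes. Over all genes 635 of 8047 did. Several genes of these lists were at 0 in all healthy dogs and entered the test through the deeper sums of dogs with OS (CSF1R at 10.7 CPM and PPBP at 11.5 CPM on average there). For that reason counts and medians here are a description that tests nothing about the lists. The 9 monocyte genes tested had a median log2 fold change of 3.81, higher in dogs with OS, against 0.33 over all genes. Apart from that median lay LYZ at -0.05 and CD300E at -0.15. CD300E was also higher in PMN-MDSCs than in monocytes, with a median over dogs of 97.5 against 1.22 CPM. The part of other cells in these differences was not tested. The summed level of the monocyte list, set by LYZ, ran from 7781 to 19513 CPM in healthy dogs and from 2905 to 17257 CPM in dogs with OS. After the 19 members marked as doublets were removed, the log2 fold change of CD74 was 5.15 (adjusted p = 0.744) and that of TMSB10 was 0.65 (adjusted p = 0.744), whereas RUBCNL stood at 3.79 (adjusted p = 0.034) in edgeR.

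**Figure D5:**
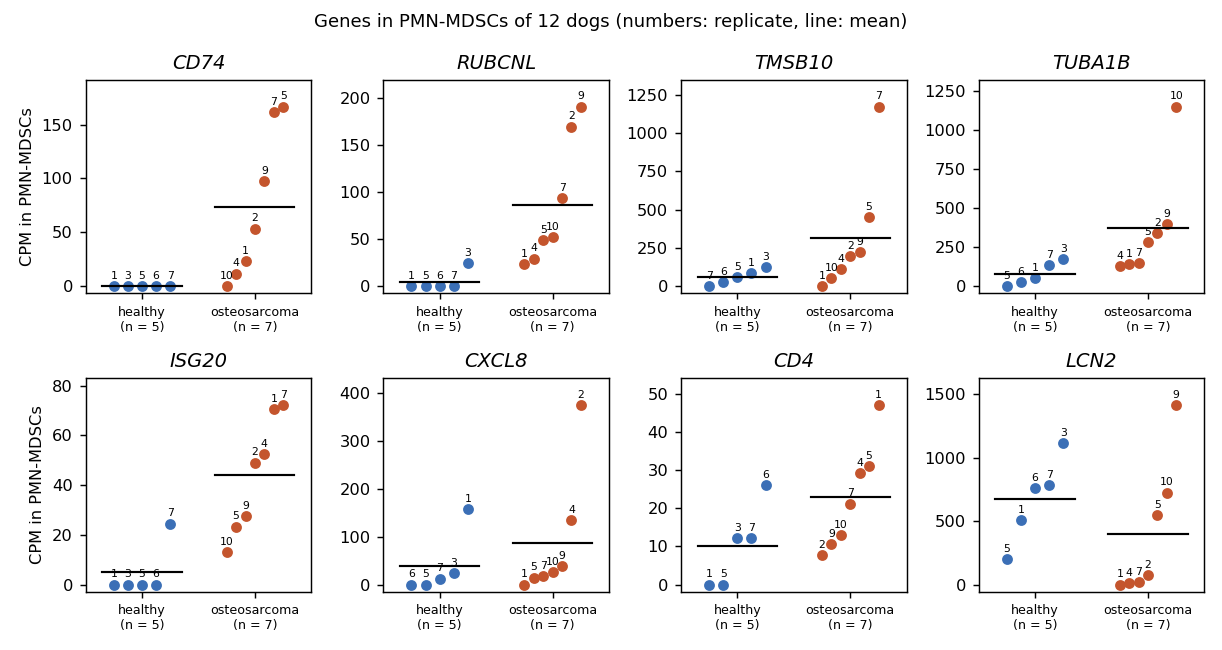
Level of 8 genes in CPM in the PMN-MDSCs of 12 dogs, a point for each dog with its replicate number and the group mean as a line. CD74 is at 0 in all 5 healthy dogs and in OS dog 10, and RUBCNL, ISG20, CXCL8, CD4, TMSB10, TUBA1B and LCN2 also overlap between the groups. LCN2 is at most 74.7 CPM in OS dogs 1, 2, 4 and 7.

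CD4, ISG20 and CXCL8, which the study singled out between healthy and OS PMN-MDSCs, were compared over dogs, and none was called. ISG20 was at 24.5 CPM in healthy dog 7 and at 0 in the other healthy dogs, and ran from 12.9 to 72.2 CPM in dogs with OS (2.53 ± 0.85, adjusted p = 0.428). From 2 healthy UMIs the ratio was 4.72 with a 95% counting interval of 1.28 to 39.5. CXCL8 was at 157 CPM in healthy dog 1 and 376 CPM in OS dog 2 and at most 134 CPM elsewhere (1.37 ± 0.69, adjusted p = 0.613), and without OS dog 2 its log2 fold change was -0.11. CD4 averaged 22.9 ± 14 CPM (SD, n = 7) in OS against 10.1 ± 10.9 CPM in healthy animals (SD, n = 5), with a log2 fold change of 0.92 ± 0.88 (adjusted p = 0.778). LCN2 had a log2 fold change of -0.73 ± 0.46 (adjusted p = 0.630 from edgeR), at 200 to 1114 CPM in healthy dogs, 546, 724 and 1414 CPM in OS dogs 5, 10 and 9, but 0, 11.7, 17 and 74.7 CPM in OS dogs 1, 4, 7 and 2. Without OS dog 9 it was called lower (-1.61, adjusted p = 0.00947 from edgeR), as it was with the replicate block (-2.40) and without OS dogs 2, 5 and 9 (-2.09). LCN2 was singled out after its values were seen.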

How the data were processed

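Leukocytes of 17 dogs were isolated on a density gradient and sequenced with a droplet method, 1 library a dog. The deposited values are UMI counts per gene and barcode, made by the authors with Cell Ranger 7.0.0 on CanFam3.1, as the file headers and labels state. Per the methods, reads were aligned in 2 ways, counting introns or leaving them out. Which version was deposited is not given in the sources used here. Total counts ranged from 7740230 to 56510134 UMIs a dog over 1332 to 7748 barcodes.

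Limits on barcodes and the PMN-MDSC rule were applied to raw counts. Gates for mature neutrophils and monocytes used the genes named in the report and 1 gene that is not reported here, and CD4 was not used. Doublets were kept, with removal of the highest Scrublet scores (0.8% per 1000 barcodes, scanpy 1.11.5) as an alternative. Counts were summed per dog and cell kind, genes with at least 10 counts were fitted with edgeR 4.0.16 (TMM, quasi-likelihood F test, Benjamini-Hochberg adjustment), and DESeq2 1.42.0 was the alternative. CPM are scaled by TMM within each comparison, so a member's CPM differs slightly between comparisons. The ± after a log2 fold change is its standard error. Shares were compared by exact two-sided Wilcoxon rank-sum tests over dogs, which could reach p = 0.0001 at the lowest. Intervals are 95% Clopper-Pearson and, like floors of 3 counts, cover counting error only. Scripts were tested on simulated data.

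Named genes were the markers and the study's short list, up to 4 of each gene list with the largest called changes, the 10 largest in each direction that were called, had at least 50 CPM and moved alike in every dog, the 10 smallest p between disease groups, and CD4, ISG20 and CXCL8. Between disease groups no gene was named from the lists by this rule. Members, lists and tests were chosen with earlier results of these data known. Other members of a list were named after their values were seen. Genes listed without a symbol were tested but not named.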

Additional observations from a re-analysis of the deposited data

Results flagged for a closer look

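Among 74 sets of dogs examined for a dog far from the rest, by the gap to the nearest dog over the whole range, 16 stood out. Chance gives about 1 in 20 for values with a normal spread, and a set with a lone dog above 0 passes the limit by construction. OS dog 2 was high in monocytes of the dog-by-dog comparison for CAMP (10.0 CPM), CD177 (1.03 CPM), MMP8 (8.69 CPM), MMP9 (80.4 CPM) and PGLYRP1 (188 CPM), where the other 7 dogs reached at most 4.55, 0.391, 1.57, 21.8 and 33.8 CPM, and it was the dog with CAMP in 5.2% of T cells. Healthy dog 7 was high for CD4 in monocytes (373 CPM against at most 117 CPM in the others) and had the most mature neutrophils. In PMN-MDSCs of dogs with OS, dog 5 stood out for CTSS (199 CPM), dog 2 for CXCL8 (376 CPM), dog 7 for TMSB10 (1173 CPM) and dog 10 for SMC4 (155 CPM) and TUBA1B (1151 CPM). In PMN-MDSCs of healthy dogs, dog 1 stood out for CXCL8 (157 CPM) and DLA88 (175 CPM), and a lone dog above 0 was singled out for CTSS (26.2 CPM, dog 6), ISG20 (24.5 CPM, dog 7) and RUBCNL (24.5 CPM, dog 3), each resting on 1 or 2 UMIs.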

How the results depend on the processing

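Both comparisons of shares kept their direction and stayed above p = 0.05 under every alternative run (other CAMP and LTF thresholds, doublets removed, no upper limits, cells thinned to 1500 UMIs, other denominators or gates, and each dog left out, where p ran from 0.252 to 0.658 for leukocytes and from 0.142 to 0.451 for neutrophil-type cells). Replicate numbers did not pair the dogs, since the 3 pairs that could be formed among PMN-MDSC sums had correlations of 0.00285, 0.0837 and -0.0266 over 2401 genes and no healthy dog was closest to its own number. With the replicate block both shares gave p = 0.219 (exact signed-rank test, 7 pairs) and the disease comparison gave 8 genes called. That comparison, with 0 genes called, also gave 23 without a filter on low counts, 5 at an adjusted p below 0.05 with no fold limit, 3 with a robust prior and 9 without OS dogs 2, 5 and 9 (both chosen after seeing the data), and from 0 to 15 with each dog left out. It gave 0 with DESeq2, DESeq2's size factors, edgeR's own expression filter, doublets removed, the lower rule and a minimum of 10 cells, and no healthy dog had 25 cells. CD74, at 0 in all 5 healthy dogs, was called under 10 of these alternatives. The cause was not tested. Against mature neutrophils 1472 genes were called in cells of 1500 to 6000 UMIs and, leaving out a dog, 2137 to 2332. Against monocytes 2987 were called without OS dogs 2, 5 and 9, and 4143 to 4657 leaving out a dog. The dog as block, or no replicate block (2685 and 4659 called), changed neither count by 1.5 times. Against monocytes the median log2 fold change over all genes was -0.50, -0.07 in the DESeq2 fit and -0.60 with its size factors in edgeR.

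Some values changed sign, among them values near 0 and 3 genes that had been called. In the disease comparison FADS1 was at -0.21 with DESeq2 and with its size factors, -0.18 with edgeR's own expression filter, -0.053 without OS dogs 2, 5 and 9 and from -0.10 to 0.27 leaving out a dog. MMP8 was at -0.026 with DESeq2, -0.022 with its size factors, -0.032 with at least 10 cells a dog and -0.11 with the replicate block. TCN1 was at -0.44 with the replicate block, -0.41 without OS dogs 2, 5 and 9 and from -0.077 (without OS dog 9) to 0.53 leaving out a dog. CXCL8 was at -1.12 with the replicate block and from -0.11 (without OS dog 2) to 3.04 leaving out a dog. With at least 10 cells a dog CRISP2 was at 0.0014 and S100A12 at 0.044, and S100A12 ran from -0.19 to 0.078 leaving out a dog. Against mature neutrophils, CD74 (called higher at 1.24) was at -0.27 with doublets removed and -0.97 in cells of 1500 to 6000 UMIs. In those cells LEF1 (called higher at 2.11) was at -0.55. Against monocytes CD5 (called higher at 1.87) was at -0.61 without OS dogs 2, 5 and 9.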
